A study of Homo sapiens with 6 samples.

Results

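Described here are 40 genes of mitosis and the mitotic spindle in Raji cells with raised IRF4. The genes were taken from a written list of symbols, with no measured value in the rule, and all 40 were found among the 23459 gene rows of the count table and passed the filter on low counts. Raji is an established human line grown from a Burkitt's lymphoma, a fast-dividing tumour of germinal centre B cells. RNA-seq compared 3 control libraries, from cells given the empty lentiviral vector, with 3 IRF4-overexpressing libraries, from cells given the vector with human IRF4 cDNA. Infection lasted 5 days in both groups, and 7 days of puromycin (3 µg/ml) followed, a selection that keeps a pool of cells with stable integrations. Nothing in the labels tells whether replicates came from separate infections or cultures, so p-values here reflect only how far these libraries differ among themselves, possibly for technical reasons. Wherever 3 values of a group are listed, they stand in the order of replicates 1, 2 and 3.

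Entry into mitosis is driven by CDK1 bound to A-type and B-type cyclins, and is helped on by the Polo and Aurora kinases. Kinesin motors and microtubule-binding proteins then build the spindle, the spindle checkpoint holds the cell until every chromosome is attached, and the anaphase-promoting complex with CDC20 ends the hold by marking securin and the cyclins for destruction. Most of these genes are transcribed late in the cell cycle, through promoter elements read by the DREAM and MYB-MuvB complexes with FOXM1. Their summed RNA is often used as a measure of proliferation. In bulk RNA, fewer cells in mitosis and less RNA per cell cannot be told apart.

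IRF4 (Entrez gene 3662), the gene introduced, measured 1.02, 1.38 and 1.37 CPM (counts scaled to library size with TMM factors) without the cDNA and 150.0, 120.5 and 125 CPM with it. The libraries held 27681979 to 46210702 counts. All 7 B cell markers and all 6 germinal centre markers looked up were expressed, while 26 markers of T and NK, myeloid, epithelial or kidney and mesenchymal cells stayed at 4.07 CPM or less in each library. Their summed levels ranged from 0.186 to 0.438 and 0.456 to 0.540 CPM for 7 T and NK markers (control, then IRF4-overexpressing), 1.18 to 1.30 and 2.34 to 4.80 CPM for 6 myeloid, 0.0996 to 0.274 and 0.320 to 0.837 CPM for 8 epithelial or kidney, and 0.523 to 1.12 and 1.30 to 3.78 CPM for 5 mesenchymal markers. Of these lists 3, 2, 5 and 2 markers were at 0 in all libraries. The libraries also fell on either side of a shared axis. It was found here from all tested genes other than the 40, after each gene's mean in each group was subtracted. Side A held control replicate 1 and IRF4-overexpressing replicates 2 and 3, side B held control replicates 2 and 3 and IRF4-overexpressing replicate 1, and this axis held 74.2% of the within-group variance. No label names a batch, and the members' counts, their median and some single genes are also compared within the sides further on.

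No mitotic gene passed the test between the groups. By edgeR's quasi-likelihood test 0 of the 40 members were higher and 0 lower at a Benjamini-Hochberg adjusted p under 0.05, beside 2.98% of the 12079 tested genes called higher and 0.182% called lower. The smallest adjusted p of a member was 0.124, for CDC20. At an unadjusted p under 0.05, 9 members were lower and 1 higher, where 8.18% of tested genes were lower and 11.3% higher. DESeq2 called 2 members lower, CDC20 and KIF11, and 0 higher, where it called 1.45% of genes lower and 4.78% higher. Limma-voom called 0 members (2.81% of genes higher, 0.182% lower). So did edgeR with median-ratio size factors (2.86% and 0.174%), library sizes alone (4.16% and 0.108%), no filter (2.06% and 0.0922%), a stricter filter (2.59% and 0.145%) and the replicate number as a block (0.0248% and 0%).

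The median fold change lay near that of all genes, and the intervals were mostly narrow. The median log2 fold change (IRF4-overexpressing over control) was -0.08 over the 40 members and 0.01 over all tested genes, with a range over members from -0.88 for MKI67 to 0.25 for MAD2L1. The ends of this range depended on single libraries. With 1 library left out at a time, the log2 fold change of MKI67 ran from -1.70 (IRF4-overexpressing replicate 1 left out) to -0.55 (replicate 2), and that of MAD2L1 from 0.42 (replicate 1) to 0.13 (replicate 2). Leaving out IRF4-overexpressing replicate 1 also gave -1.36 for PLK1, -0.98 for FOXM1, -1.01 for INCENP and -0.86 for TPX2, and in 35 of the 40 members the sign was the same in all 6 such fits. The 95% interval lay within 2-fold in either direction for 35 of the 40, where 79.2% of tested genes had such an interval. It lay within 1.5-fold for 29, against 51.9%. Both shares are over tested genes of every CPM, not only those at the members' levels. The 5 members whose interval reached beyond 2-fold were PLK1, FOXM1, INCENP, TPX2 and MKI67. With library sizes alone in place of TMM, the median of the members was 0.02 and that of all genes 0.10, so both shifted upward by a like amount.

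**Figure D1:**
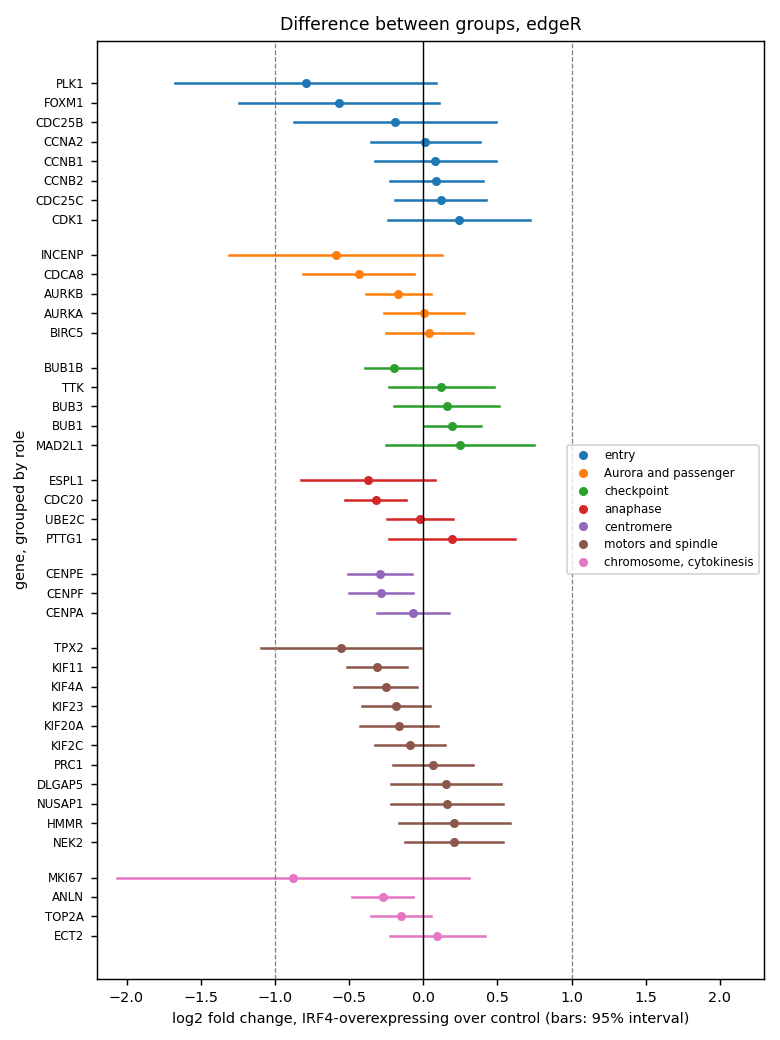
Log2 fold change of each of the 40 members, IRF4-overexpressing over control, with bars for the 95% interval from edgeR, grouped and coloured by role; dashed lines mark 2-fold. The values run from -0.88 (MKI67) to 0.25 (MAD2L1), and the widest bars belong to MKI67, PLK1, INCENP, CDC25B and FOXM1.

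The promoters show what most of these genes share in sequence. RefSeq promoter windows (GRCh38.p14, 250 bases before to 50 after the gene's start) were at hand for 33 of the 40 members, all but FOXM1, AURKA, BIRC5, BUB3, TTK, UBE2C and TPX2. The cell cycle genes homology region (CHR), searched on both strands as TTTGAA or TTCGAA, was found in 23 of the 33 (69.7%), against 11.9% of the 9502 windows of tested genes and 16.6% of all 27305 windows. CCAAT, the box bound by NF-Y, was found in 27 of 33 (81.8%), against 38.6% of tested windows, and both motifs together in 21 (63.6%), against 5.4%. A CHR match began in the 50 bases just before the start in 13 of the 33 (39.4%), against 1.88% of tested windows. The 150 bases before the start are shown for 6 members that stand for 3 patterns of expression described further on, with CHR and CCAAT matches of either strand in capitals. CDC20 (chr1:43358831-43358980, plus strand) and KIF11 (chr10:92592980-92593129, plus strand) were lower in every IRF4-overexpressing library. PLK1 (chr16:23678739-23678888, plus strand) and MKI67 (chr10:128126424-128126573, minus strand) were lower in every side A library, and CCNB2 (chr15:59104996-59105145, plus strand) and HMMR (chr5:163460482-163460631, plus strand) higher in each of them.
CDC20: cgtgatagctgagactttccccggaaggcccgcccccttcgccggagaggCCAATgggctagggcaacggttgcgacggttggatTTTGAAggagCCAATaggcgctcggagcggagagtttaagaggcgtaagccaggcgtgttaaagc
KIF11: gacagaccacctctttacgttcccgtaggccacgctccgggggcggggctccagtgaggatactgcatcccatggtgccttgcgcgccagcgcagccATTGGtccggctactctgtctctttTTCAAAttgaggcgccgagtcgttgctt
PLK1: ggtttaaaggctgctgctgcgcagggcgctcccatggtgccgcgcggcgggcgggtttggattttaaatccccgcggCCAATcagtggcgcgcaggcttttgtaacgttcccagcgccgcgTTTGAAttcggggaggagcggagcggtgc
MKI67: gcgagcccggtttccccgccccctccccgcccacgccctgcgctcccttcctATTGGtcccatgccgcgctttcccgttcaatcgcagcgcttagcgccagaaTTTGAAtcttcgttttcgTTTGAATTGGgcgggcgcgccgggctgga
CCNB2: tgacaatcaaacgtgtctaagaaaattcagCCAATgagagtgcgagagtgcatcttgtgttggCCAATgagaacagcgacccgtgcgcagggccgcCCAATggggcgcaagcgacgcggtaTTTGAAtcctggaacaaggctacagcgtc
HMMR: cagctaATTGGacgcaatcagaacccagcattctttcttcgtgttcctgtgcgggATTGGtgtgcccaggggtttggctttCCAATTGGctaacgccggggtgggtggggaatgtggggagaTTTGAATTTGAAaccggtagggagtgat

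All 6 stretches hold a CHR match and at least 1 CCAAT match. In MKI67 the last CHR match overlaps a reversed CCAAT, and in HMMR a forward and a reversed CCAAT overlap. Elements that IRF proteins can bind were also searched. The interferon-stimulated response element, searched on both strands as GAAA, any 2 bases and GAAA, was in 0 of the 33 member windows and in 3.1% of tested windows. The ETS-IRF composite element, searched as GGAA, any 2 bases and GAAA, was in 1 of 33 (3.0%), that of INCENP, and in 2.7% of tested windows. These are matches of letters and not measured binding.

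Among the 8 genes of mitotic entry, 0 passed the test, and in all 8 the groups overlapped. PLK1 (Entrez gene 5347), the Polo kinase, measured 123, 171 and 183 CPM in the control libraries against 151, 59.6 and 64.7 CPM with IRF4. IRF4-overexpressing replicate 1 thus lay inside the control range, and the other two lay below it (log2 fold change -0.79, SE 0.37, edgeR adjusted p = 0.285). FOXM1 (Entrez gene 2305), the transcription factor of late cell cycle genes, had the same shape, with 115, 146 and 151 CPM against 139, 71.8 and 68.6 CPM (-0.57, SE 0.28, edgeR adjusted p = 0.306). CDC25B, a phosphatase that activates CDK1, averaged 105 ± 23.0 CPM without and 91.9 ± 35.5 CPM with IRF4 (SD, n = 3 each).

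The mitotic kinase and its cyclins had the reverse order of libraries. CDK1 (Entrez gene 983) was at 309, 244 and 236 CPM in control and 225, 343 and 364 CPM with IRF4. Here IRF4-overexpressing replicate 1 was the lowest of the 6 libraries and replicates 2 and 3 the highest (log2 fold change 0.24, SE 0.20, edgeR adjusted p = 0.48). CCNB1, the main mitotic cyclin, was at 323 ± 42.6 and 341 ± 67.7 CPM (SD, n = 3 each). CCNB2 and CCNA2, the other mitotic cyclins, had fold changes of 1.06 and 1.01. CDC25C, another CDK1 phosphatase and the member of lowest CPM, was at 8.16 ± 0.769 and 8.85 ± 0.894 CPM (SD, n = 3 each).

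Of the 5 genes of the Aurora kinases and the chromosomal passenger complex, 0 passed. CDCA8 (Entrez gene 55143), which encodes Borealin of that complex, was at 168, 192 and 194 CPM in control and 170.0, 119 and 121 CPM with IRF4. The groups overlapped by IRF4-overexpressing replicate 1 alone (log2 fold change -0.43, SE 0.16, edgeR adjusted p = 0.209). INCENP (Entrez gene 3619), the scaffold of the complex, was at 94.5, 137 and 140.1 CPM against 123, 62.5 and 61.7 CPM (-0.59, SE 0.30, edgeR adjusted p = 0.312). AURKB, the kinase of the complex, was lower in all 3 IRF4-overexpressing libraries, with means of 95.02 ± 1.95 and 84.6 ± 6.28 CPM (SD, n = 3 each; edgeR adjusted p = 0.333). AURKA, the centrosomal Aurora kinase, and BIRC5, survivin, had log2 fold changes of 0.01 and 0.04.

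In the spindle checkpoint group, 0 of 5 passed, and BUB1 and BUB1B had log2 fold changes of opposite sign. BUB1 (Entrez gene 699), a checkpoint kinase at the kinetochore, was at 121, 113 and 114 CPM in control and 132, 133 and 134 CPM with IRF4. It was the only member with every IRF4-overexpressing library above every control library (log2 fold change 0.20, SE 0.08, edgeR adjusted p = 0.242). Such a separation upward was seen in 13.5% of all tested genes. BUB1B (Entrez gene 701), whose product BUBR1 inhibits CDC20, was at 313, 286 and 289 CPM against 253, 265 and 256 CPM, lower in all 3 (-0.20, SE 0.08, edgeR adjusted p = 0.244). MAD2L1, BUB3 and TTK, which encode the checkpoint proteins MAD2, BUB3 and the kinase MPS1, had log2 fold changes of 0.25, 0.16 and 0.12 with overlapping groups.

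Of the 4 genes of anaphase onset, 0 passed. CDC20 (Entrez gene 991), the activator of the anaphase-promoting complex, was at 218, 245 and 233 CPM in control and 189.8, 191 and 177 CPM with IRF4. Every IRF4-overexpressing library was below every control library (0.801-fold; log2 fold change -0.32, SE 0.09, 95% interval -0.53 to -0.11, edgeR adjusted p = 0.124). DESeq2 gave an adjusted p of 0.0434 for CDC20. ESPL1 (Entrez gene 9700), separase, which cuts cohesin, was at 95.03, 122 and 117 CPM against 110.3, 77.1 and 70.9 CPM, with overlapping groups (-0.37, SE 0.19, edgeR adjusted p = 0.311). PTTG1, securin, and UBE2C, the ubiquitin-conjugating enzyme of the complex, had fold changes of 1.14 and 0.985. PTTG1 has near-identical gene copies elsewhere in the genome, so its value is uncertain.

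All 3 centromere genes had negative log2 fold changes, and 0 passed. CENPF (Entrez gene 1063), a large protein of the outer kinetochore, was at 742, 729.5 and 705 CPM in control and 648, 582 and 555 CPM with IRF4. CENPE (Entrez gene 1062), the kinesin that carries chromosomes to the spindle equator, was at 294, 258 and 270.4 CPM against 235, 224 and 213 CPM. In both genes every IRF4-overexpressing library lay below every control, as in 11.9% of all tested genes. Their log2 fold changes were -0.29 each (SE 0.09 each, edgeR adjusted p = 0.174 for CENPF and 0.166 for CENPE). CENPA, the centromeric histone, was at 22.9 ± 1.22 and 21.8 ± 1.65 CPM (SD, n = 3 each) with overlapping groups.

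Among the 11 motors and spindle proteins, 0 passed, and 3 kinesin genes were lower in every IRF4-overexpressing library. Of all tested genes, 11.9% were lower in this way. KIF11 (Entrez gene 3832), the motor that pushes the spindle poles apart, was at 364, 322 and 337 CPM in control and 284, 268 and 272 CPM with IRF4. Its log2 fold change was -0.31 (0.806-fold, SE 0.09, 95% interval -0.51 to -0.11, edgeR adjusted p = 0.126), and DESeq2 gave an adjusted p of 0.0369. KIF4A (Entrez gene 24137), a chromosome-bound kinesin, was at 82.0, 77.7 and 79.5 CPM against 71.3, 66.6 and 62.7 CPM (-0.25, SE 0.09, edgeR adjusted p = 0.195). The third was KIF23, a kinesin of the central spindle, with means of 180.5 ± 13.6 and 159 ± 9.46 CPM (SD, n = 3 each; edgeR adjusted p = 0.314). TPX2, which activates AURKA on the spindle, differed most by mean, at 470.4 ± 55.0 against 321 ± 106 CPM (SD, n = 3 each), but its groups overlapped (log2 fold change -0.55, edgeR adjusted p = 0.246). KIF20A, KIF2C, PRC1, NUSAP1, HMMR, DLGAP5 and NEK2, motors and microtubule regulators, had log2 fold changes of -0.16 to 0.21.

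In the last 4 genes, of chromosome structure and cytokinesis, 0 passed. ANLN (Entrez gene 54443), anillin of the contractile ring, was at 146, 133 and 132 CPM in control and 109, 117 and 114 CPM with IRF4, lower in all 3 (log2 fold change -0.27, SE 0.09, edgeR adjusted p = 0.172). TOP2A, the topoisomerase that untangles sister chromatids and the most abundant member, was lower in all 3 as well, at 871 ± 54.9 and 787 ± 13.6 CPM (SD, n = 3 each; edgeR adjusted p = 0.348). MKI67 (Entrez gene 4288), the proliferation marker Ki-67, was at 354, 544 and 652 CPM against 522, 148 and 173 CPM. IRF4-overexpressing replicate 1 lay within the control range and the other two far below it, so the mean log2 fold change of -0.88 carried an SE of 0.50 (edgeR adjusted p = 0.343). ECT2, the exchange factor that starts the cleavage furrow, had a fold change of 1.07.

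**Figure D2:**
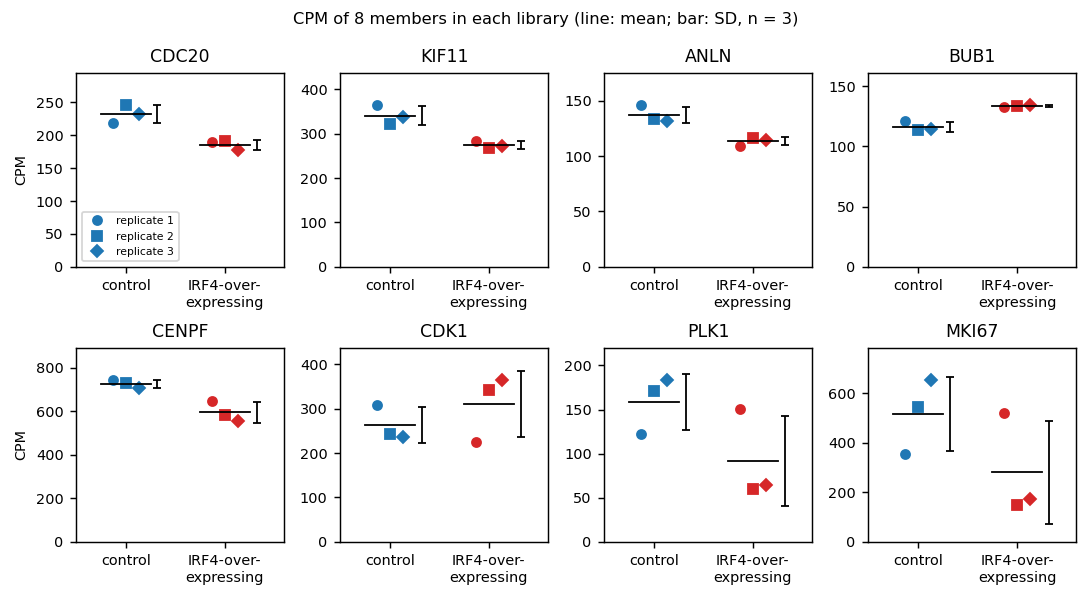
CPM of 8 members in each library, with symbols for the replicate number, a line for the mean and a bar for the SD (n = 3 per group). CDC20, KIF11, ANLN and CENPF were lower in all 3 IRF4-overexpressing libraries and BUB1 higher, while in CDK1, PLK1 and MKI67 replicate 1 stood on the other side from replicates 2 and 3.

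Lower in every IRF4-overexpressing library were genes from 6 of the 7 roles. In AURKB, BUB1B, CDC20, CENPE, CENPF, KIF11, KIF23, KIF4A, TOP2A and ANLN every IRF4-overexpressing library was below every control library, 10 of 40 members, where 11.9% of tested genes did the same. The share was 14.5% among the 8781 genes within the members' range of mean CPM (8.51 to 829). In the other direction it was 1 of 40, BUB1, where 13.5% of tested genes did so. With library sizes alone the counts were 7 and 1, where 5.3% and 20.1% of tested genes did so. The summed level of the 40 members was 9227, 8928 and 8964 CPM in control and 8085, 8293 and 8293 CPM with IRF4, a ratio of means of 0.91 without overlap. The other genes in the same range of CPM summed to 0.933 of their control level. As a share of all counts, with no TMM scaling, the members took 0.864% to 0.893% in control and 0.828% to 0.866% in IRF4-overexpressing libraries, which overlapped.

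Within groups, the members differed along the axis of the libraries, some in each direction. In 17 of 40 members every side A library was above every side B library, where 23.6% of tested genes did so, and in 8 every side A library was below, where 22.5% did. The 17 were CDK1, CCNB1, CCNB2, CCNA2, CDC25C, AURKA, BIRC5, BUB3, MAD2L1, TTK, PTTG1, PRC1, NUSAP1, HMMR, DLGAP5, NEK2 and ECT2. The 8 were CDC25B, PLK1, FOXM1, CDCA8, INCENP, ESPL1, TPX2 and MKI67. The log2 difference, side A minus side B, was taken from the edgeR model with terms for side and group, and so is adjusted for group. It ran from 0.54 for MAD2L1 to -1.23 for MKI67. Of the within-group variance of a member, a median of 96.4% lay on this axis, against 75.6% for all tested genes. In KIF11, AURKB, TOP2A and CENPE it was 0.6% to 2.9%. The 75.6% is over tested genes of every CPM, and no such median was taken within the members' range of CPM.

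**Figure D3:**
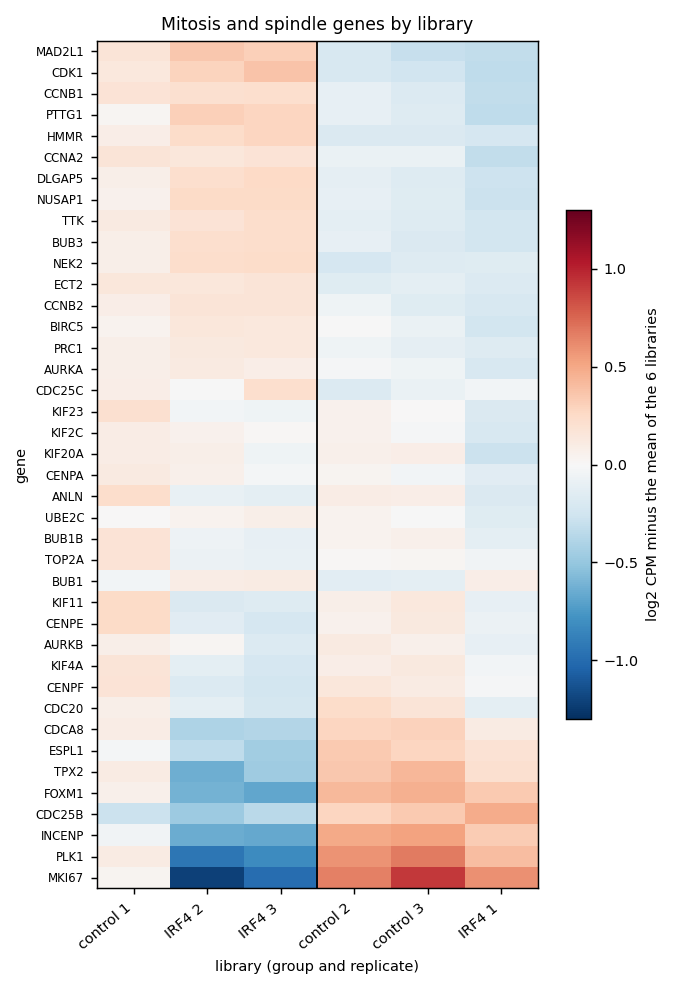
Log2 CPM of the 40 members (rows) in the 6 libraries (columns) after subtraction of each gene's mean. Rows are ordered by the difference between side A (left of the line) and side B, adjusted for group. The upper rows, led by MAD2L1 and CDK1, are higher on side A and the lower rows, down to MKI67, are lower there, while control replicate 1 lies near the row mean for MKI67, PLK1 and INCENP.

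The difference between the sides went with GC content. Over the 40 members, the log2 difference between the sides and the GC content of the longest annotated transcript had a Pearson r of -0.637 (Spearman rho -0.556), and over the 11789 tested genes with a GC value r was -0.314 (rho -0.374). These are descriptions across genes measured in the same 6 libraries. The 8 members of lowest GC (35.3% to 39.4%: CENPE, HMMR, CDK1, ECT2, KIF11, DLGAP5, TOP2A and MAD2L1) had a median difference of 0.34, with 8 of 8 above 0. Of these, CENPE, KIF11 and TOP2A were at only 0.025, 0.035 and 0.057, with overlapping sides. The 8 of highest GC (52.2% to 59.6%: INCENP, CDC25B, CDC20, PLK1, ESPL1, AURKB, FOXM1 and BIRC5) had a median of -0.565, with 2 of 8 above 0. These 2 were AURKB, at 0.007, and BIRC5, at 0.24, while CDC20 was at -0.09 with overlapping sides. MKI67, at 48.3% GC, had the lowest value of all. With log2 gene width r was -0.372 over the members. The part of GC content in these differences was not tested. A CHR match was in 23 of all 33 members with a promoter window. By side it was in 8 of the 13 side A-high members, 5 of the 6 side A-low ones and 10 of the 14 with overlapping sides. By group it was in 8 of the 10 that were lower in every IRF4-overexpressing library, 14 of the 22 with overlapping groups and in BUB1.

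**Figure D4:**
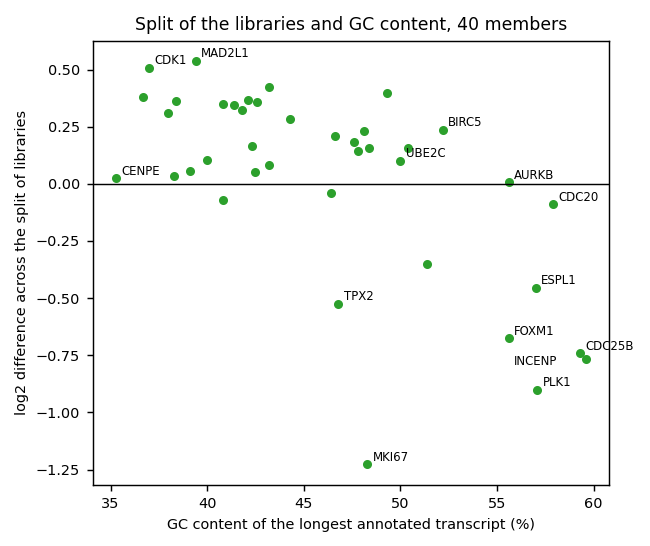
Log2 difference between side A and side B, adjusted for group (vertical axis), against GC content of the longest annotated transcript in percent (horizontal axis). There is 1 point for each of the 40 members. CDK1 and MAD2L1 lie at low GC and above 0, and PLK1, INCENP, CDC25B and FOXM1 at high GC and below 0, with MKI67 lowest at 48.3%.

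Compared within the sides, more members were lower than higher. On side A, control replicate 1 was set against IRF4-overexpressing replicates 2 and 3, and on side B, control replicates 2 and 3 against IRF4-overexpressing replicate 1. The median log2 difference of the members (IRF4-overexpressing minus control) was -0.07 on side A and -0.16 on side B, while over all tested genes it was 0.01 and -0.03. On both sides 21 of the 40 were lower, where 34.2% of tested genes and 40.5% of genes in the members' CPM range were so. Higher on both sides were 3, BUB1, CDC25C and NEK2, where 29.2% of tested genes were. With library sizes alone the counts were 16 and 7, where 18.4% and 42.8% of tested genes were so. In log2 CPM, MKI67 had differences of -1.14 on side A and -0.19 on side B, and PLK1 had -0.98 and -0.23. CDC20 had -0.25 and -0.33, KIF11 -0.43 and -0.21, and ANLN -0.34 and -0.28. Each side has a group with a single library, so these differences carry no error of their own. Libraries of the same side and group also differed in their place on the axis. Axis scores were 0.335, -0.107 and -0.228 in control and -0.741, 0.396 and 0.345 with IRF4. Each score places a library against the mean of its own group, so scores cannot be compared between groups. The difference between groups within a side may therefore still hold part of the axis, by an amount these scores do not give.

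With a term for the side in the model, 5 members were called lower and 0 higher, where 3.22% of tested genes were called lower and 5.87% higher. They were ANLN (log2 fold change -0.31, edgeR adjusted p = 0.0242), KIF11 (-0.32, 0.0355), CDC20 (-0.29, 0.0403), KIF23 (-0.24, 0.0431) and CDCA8 (-0.34, 0.0469). The sides were read from these same libraries, so the p-values of this fit are too small. The side term also leaves in differences along the axis among libraries of the same side. PLK1 and MKI67 had log2 fold changes of -0.60 and -0.67 in that fit (edgeR adjusted p = 0.0583 and 0.0803). When IRF4-overexpressing replicate 1 was left out, a comparison that mixes the group with the axis, 14 members were lower and 8 higher, where 25.1% and 19.9% of tested genes were so. With any other single library left out, 0 members were called. In those 5 fits the shares of genes called higher and lower were 1.02% and 0.0244% (control replicate 1 left out), 0.975% and 0.0244% (control 2), 1.11% and 0.0245% (control 3), 1.25% and 0.0245% (IRF4-overexpressing 2) and 1.28% and 0.0246% (IRF4-overexpressing 3).

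**Figure D5:**
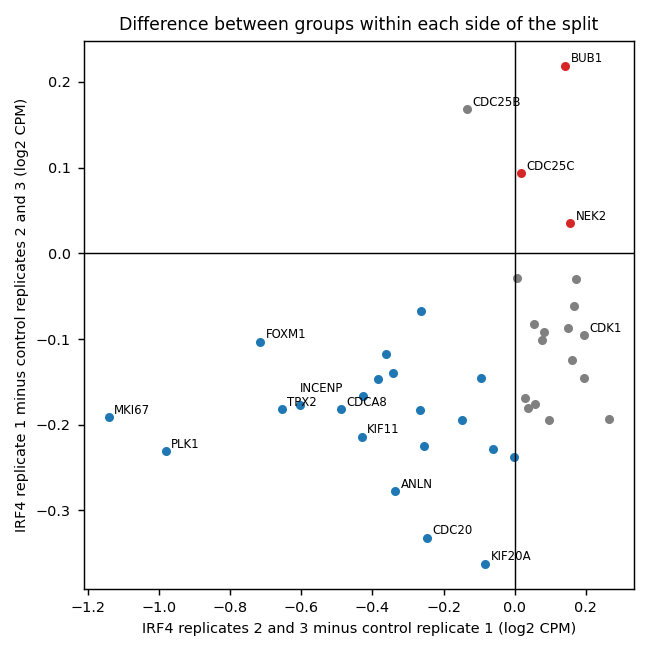
Difference in log2 CPM between the groups within side A (horizontal axis) and within side B (vertical axis), 1 point for each member. Blue points (21) were lower on both sides, red points (3, BUB1, CDC25C and NEK2) higher on both and grey points mixed.

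Levels per length put the members over a wide range. By control CPM per kilobase of the deposited gene width, CCNA2 and TOP2A were the highest, each at 151, followed by MAD2L1 (144), CCNB1 (138), CDC20 (134) and TPX2 (125). The lowest was CDC25C, at 2.74 per kilobase, with NEK2 (13.6) and CENPA (14.6) above it. In IRF4-overexpressing libraries the highest was MAD2L1 (171), followed by CCNA2 (153), CCNB1 (146) and TOP2A (136).

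The wider mitotic machinery was read from 8 further lists of 181 genes, of which 180 were tested. In 7 lists 0 members passed edgeR's test at an adjusted p under 0.05 in either direction, namely 37 other kinetochore genes, 21 condensin and cohesin genes, 17 of the anaphase-promoting complex, 34 of the spindle, centrosome and cytokinesis, 16 regulators of entry and exit, 21 of the DREAM, MYB-MuvB and E2F family, and 27 of DNA replication. The median log2 fold change of condensin and cohesin was the lowest of these, at -0.27, and that of the others was -0.14 to 0.05. At an unadjusted p under 0.05, 9 of its 21 genes were lower, as were 7 of 27 replication genes, where 8.18% of all tested genes were lower. In the other lists it was 2 of 37 kinetochore genes, 1 of 17 of the anaphase-promoting complex and 3 of 34 of the spindle list. It was 3 of 16 regulators of entry and exit and 2 of 21 of the DREAM, MYB-MuvB and E2F family. Higher at that threshold was 1 gene, of the DREAM, MYB-MuvB and E2F family, where 11.3% of tested genes were higher. Within the sides the median of condensin and cohesin was -0.36 on side A and -0.09 on side B, and that of the replication genes -0.08 and -0.16. CDCA5, sororin, which locks cohesin, was at 168, 171 and 176 CPM in control and 149, 118 and 107 CPM with IRF4 (edgeR adjusted p = 0.144). The cohesin subunit gene STAG1 was at 106 ± 5.72 and 87.8 ± 2.59 CPM (SD, n = 3 each; edgeR adjusted p = 0.176). In both, every IRF4-overexpressing library was below every control library, as in 11.9% of all tested genes. The pairs with the smallest p in the other lists had adjusted p-values of 0.133 to 0.299 and log2 fold changes of -0.66 to -0.19, among them CENPO, HJURP, ANAPC15, CDC27, CKAP5, KIFC1, GTSE1, CDC25A, TFDP1, E2F7, RRM2 and ORC1. Other fits called some of these genes. DESeq2 called 2 of the 27 replication genes lower and 0 in the other 6 of these lists, where it called 1.45% of tested genes lower. The 2 were RRM2 (DESeq2 adjusted p = 0.0354), a subunit of ribonucleotide reductase, and ORC1 (0.0349), of the origin recognition complex. With the side term, whose p-values are too small, edgeR called lower 4 condensin and cohesin genes, 3 entry and exit regulators and 3 replication genes. It also called 1 kinetochore gene and 1 of the spindle list lower, where 3.22% of tested genes were called lower. The anaphase-promoting complex and the DREAM, MYB-MuvB and E2F family had 0. Among those called were CENPO, CDCA5, STAG1, KIFC1, GTSE1, CDC25A, RRM2 and ORC1. Without IRF4-overexpressing replicate 1, a comparison that mixes the group with the axis, 15 of 21 condensin and cohesin genes were called lower and 1 higher. Of the 27 replication genes 10 were lower and 4 higher, where 25.1% of tested genes were lower and 19.9% higher. Kinetochore genes had 4 lower and 7 higher, the anaphase-promoting complex 3 and 4, and regulators of entry and exit 2 and 3. The spindle list had 12 and 2, and the DREAM, MYB-MuvB and E2F family 8 and 2.

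By edgeR's test with group as the sole term, the single call of these lists was in that of CDK inhibitors and RB1. CDKN1A (Entrez gene 1026), the inhibitor p21 that holds cyclin-CDK complexes in check, was at 33.1, 36.7 and 34.3 CPM in control and 47.0, 49.2 and 50.7 CPM with IRF4. It rose 1.41-fold without overlap (log2 fold change 0.50, SE 0.09, edgeR adjusted p = 0.0317), and by 0.50 with the side term (edgeR adjusted p = 0.0128). Its call was lost without any single library except IRF4-overexpressing replicate 1 (edgeR adjusted p = 0.0962 to 0.191 in those 5 fits) and with the replicate number as a block (0.268). CDKN2C, the inhibitor p18 of CDK4 and CDK6, was at 93.4, 95.04 and 92.4 CPM against 68.3, 74.2 and 73.3 CPM, without overlap (-0.38, SE 0.08, edgeR adjusted p = 0.07), and DESeq2 called it lower (adjusted p = 0.00153). Of the 7 tested genes of this list, 1 rose and 0 fell by edgeR's test, where 2.98% of all tested genes were called higher and 0.182% lower. Without overlap between the groups, 1 was higher and 1 lower, where 13.5% and 11.9% of all tested genes were so.

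Set against DNA replication genes, the mitotic genes had ratios that overlapped between the groups. The summed CPM of the 40 members was 1.08, 1.04 and 1.07 times that of the 27 replication genes in control replicates 1, 2 and 3, and 1.07, 1.04 and 1.06 times in the IRF4-overexpressing ones. The means were 1.06 ± 0.0199 and 1.06 ± 0.0179 (SD, n = 3 each). The replication sum itself was 8516.9, 8553.5 and 8406.6 CPM in control and 7533.3, 7990.8 and 7824.6 CPM with IRF4. Its ratio of means was 0.917, beside 0.910 for the members and 0.936 for the sum of all tested genes. Both lists were thus lower in sum, and the like ratios do not mean unchanged levels.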

How the data were processed

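The authors deposited a table of raw read counts per Entrez gene, 1 column per library, and a gene width in bases, per the file headers. The control columns are called WT there. They were matched to the labelled control samples by cell line and replicate number, so this match is inferred. Genome builds mm9 and hg19 are named per the submitters' processing notes. Libraries were made with a stranded mRNA kit, per the labels' protocols. Aligner, counter, annotation and counting strand: not given in the sources used here, so reads of overlapping or near-identical genes cannot be separated. Symbols came from RefSeq (GRCh38.p14), which matched 23308 of 23459 rows. The other 151 rows held 0.122% of counts.

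Control and IRF4-overexpressing libraries were compared by the quasi-likelihood F-test (two-sided) of edgeR 4.0.16 in R 4.3.3, after filterByExpr and TMM, with group as sole term and Benjamini-Hochberg adjustment over 12079 genes. SEs are the absolute log2 fold change over the square root of F, and intervals use the moderated degrees of freedom. Other settings tried were DESeq2 1.42.0, limma-voom (limma 3.58.1), library sizes alone, median-ratio size factors, a filter of 1 CPM in 3 libraries, no filter, the replicate block, a term for the library axis and leaving out each library. Counts of overlap with library sizes alone were added after the data were seen. GC content came from GENCODE transcripts and was known for 97.6% of tested genes. Values in every library are given for the 2 members of each role with the smallest p and some others chosen after their values were seen. For further lists, the 2 genes with the smallest p and any called gene are named. The members and lists were chosen with earlier results of these data known. On simulated counts for 12079 genes, the test recovered 7.5% of 1.5-fold, 56.7% of 2-fold and 93.9% of 4-fold changes, with 5 of 110 calls false. The simulated counts varied independently between genes, without the shared axis of these libraries, so these rates may not hold for the measured counts. No replicate pair matched within sampling noise (chi-square per gene 6.5 to 184.7). Control pairs gave 6.5 to 53.5, and IRF4-overexpressing replicates 2 and 3 gave 7.6. The pairs with IRF4-overexpressing replicate 1 gave 170.5 and 184.7. Figures used matplotlib 3.10.9.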

Additional observations from a re-analysis of the deposited data

How the results depend on the processing

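The 0 calls among the 40 members held with limma-voom, library sizes alone, median-ratio size factors, both other filters and the replicate block. DESeq2 called 2 lower (577 genes higher and 175 lower in all), and the term for the library axis 5 lower (709 and 389). Over the fits without single libraries, 0 to 8 members were higher and 0 to 14 lower, with 120 to 2436 of all genes higher and 3 to 3071 lower, the upper ends all without IRF4-overexpressing replicate 1. Against 360 higher and 22 lower genes in all, library sizes alone gave 13 lower, and the replicate block 3 higher and 0 lower. The replicate numbers did not pair the libraries, since the deviations of same-numbered libraries correlated at -0.649, -0.219 and -0.467 and 0 of 3 control libraries correlated best with its own number. The cause of these changes was not tested. The median log2 fold change of the members was -0.119 to 0.016 over all settings. The sign of 9 uncalled members changed with the axis term and of 0 to 4 elsewhere. The simulation, which covered edgeR's test with group as the sole term, recovered few changes of 1.5-fold over genes of every spread, so a missing call there does not show that a change of that size was absent.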
